A study of Arabidopsis thaliana with 42 samples.

Results

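The transcripts described here were higher in the miR line of a series of Arabidopsis thaliana seedlings than in its Col controls, while 3 other higher order lines named penta, hexa and hepta stayed close to Col. A probe set, the group of oligonucleotides that measures 1 transcript on the array, was a member if its mean log2 level in miR was at least 0.7 above the mean of the Col arrays of that set and its penta, hexa and hepta means each lay within 0.4 of Col. Of 22746 plant probe sets, 126 met these thresholds. The probe sets of AT2G15560, AT5G60250, BGLU28, EXLA1, UGT85A2 and XTH16 were then left out by name, which left 120 members. The members were chosen by the measured levels on those 15 arrays, so their values there are a description with no test.

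The series profiled seedlings of lines mutated in ACC synthase (ACS) genes on 42 one-colour Affymetrix arrays, with 3 arrays labelled as biological replicates in each of 14 groups. All seedlings were 10 days old, had been cold treated for 2 days at 4 C as seeds, and grew on agar medium with sucrose at 25 C under 16 hours of light a day. A set of 27 arrays held Col, the control accession, and 8 lines labelled as single mutants: the pairs acs2B with acs2C and acs5C with acs5D, and the lines acs1A, acs4A, acs6E and acs9B. The other 15 arrays held a separate Col group and the lines labelled penta, hexa, hepta and miR. The labels give no allele, no construct and no list of genes for any line, do not say what the miR line carries, and do not say whether a line is 1 isolate or how many seedlings were pooled. Probe sets of the ACS genes are unnamed in the annotation used here, and the loss of the targeted transcripts was not checked. Levels were normalized separately in the sets and are compared only within one.

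ACC synthases make the direct precursor of ethylene, a gaseous plant hormone that restrains growth of seedlings and acts with jasmonate in defence. Transcripts of the mitotic machinery build up shortly before and during mitosis, whereas those of replication proteins and histones build up while DNA is copied, so the levels of both groups in a seedling depend on how many cells of its meristems are dividing. In whole seedlings, fewer cells of a type and less RNA per cell cannot be told apart.

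A single gene was named for 53 members, of which 12 carried a gene symbol and 41 a locus code only. 1 further probe set matched several genes, and 66 were unnamed here. The symbols were AUR1, AUR3, BUB3.1, BUB3.2, TOPII, 3xHMG-box1, ZCF125, NET3C, ATMPK13, PME61, PDF1.2b and OLEO3, and 7 of these 12 belong to the machinery of mitosis and cytokinesis. Genes known by a locus code alone are given with their values and no role. The 53 genes lay on all 5 chromosomes, 12 on chromosome 1, 10 on chromosome 2, 6 on chromosome 3, 7 on chromosome 4 and 18 on chromosome 5. Only AT5G38160 and AT5G38170 were immediate neighbours.

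Across the members the difference between miR and Col ran from 0.70 to 2.13 with a median of 0.88 on the log2 scale, which is 1.63-fold to 4.36-fold with a median of 1.85-fold. A difference of 1 or more was seen for 40 members and one between 0.7 and 1 for 80. The median member stood 0.90, 0.85 and 0.89 above the Col mean on the 3 miR arrays, so the typical size was alike on all of them, and between -0.05 and 0.11 on the other 12 arrays. Median differences from the same Col arrays were -0.01 in penta, 0.08 in hexa and 0.06 in hepta. Each miR array was above each Col array for 110 members, against 19.2% of all plant probe sets, and above all 12 other arrays of the set for 104, against 4.26%. With limma, 109 members were called higher in miR at an adjusted p below 0.05, against 12.3% of all plant probe sets. The rule used this contrast, and nothing is read from these shares. Members were mostly dim in Col, with a median level of 5.35 and 88 of 120 below 6.24, the median of all plant probe sets.

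**Figure D1:**
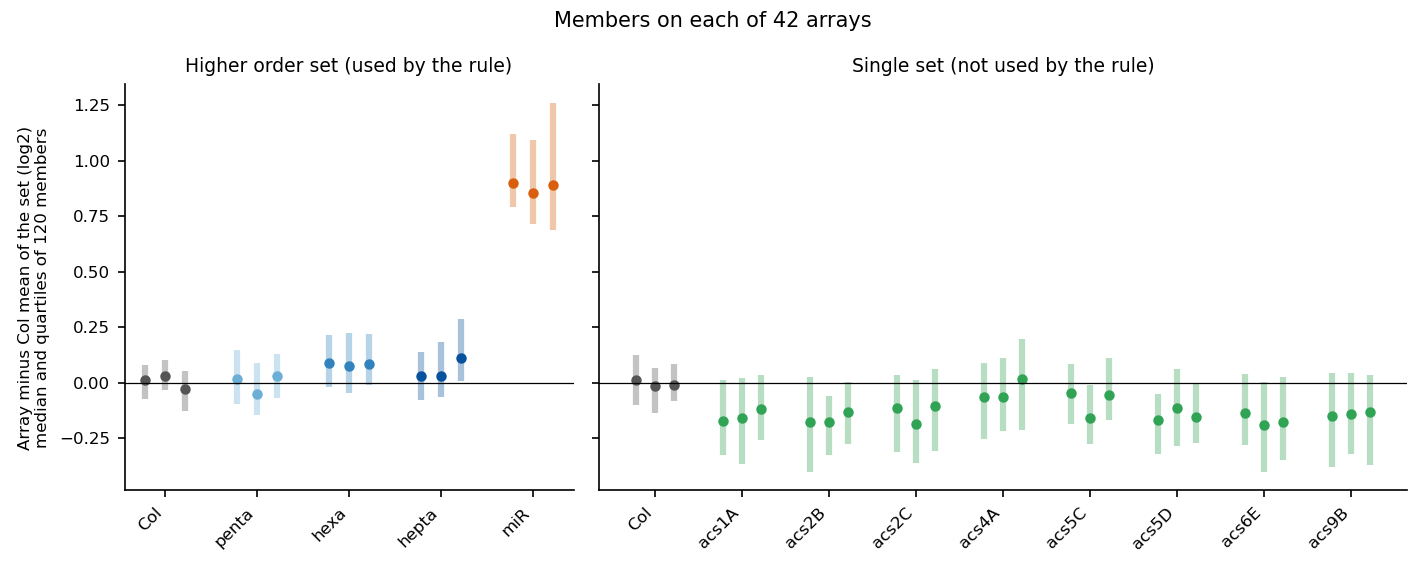
Each point is the median over the 120 members of 1 array minus the mean of the Col arrays of its set (log2), and each bar spans the quartiles. The 3 miR arrays sit at 0.90, 0.85 and 0.89 and the 12 other arrays of the higher order set between -0.05 and 0.11, and in the single set most line arrays sit below Col.

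The third miR array stood apart from the other two for 11 members. In each, its level was at least 1.5 above both other miR arrays. OLEO3, an oleosin, a protein that coats the oil bodies of seeds, read 4.29, 4.18 and 6.51 in miR and 4.02, 4.19 and 4.11 in Col. AT5G38160 read 4.39, 4.24 and 7.55 in miR against 4.24, 4.24 and 4.14 in Col. Its neighbour AT5G38170 read 3.59, 3.63 and 6.26, and AT1G47540 read 3.65, 3.74 and 6.21, in the miR arrays. The first pair of miR arrays thus lay near Col for these genes, and only miR replicate 3 was high. The other 7 of these members were unnamed here, and the 11 stood 2.40 to 3.65 above the Col mean on that array, or 5.27-fold to 12.5-fold.

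Over all plant probe sets, 15 were at least 1.5 higher in miR replicate 3 than in both other miR arrays, 11 of them members. Among the other 41 arrays, counts of this kind ran from 0 to 18 with a median of 0, and the 18 were in acs4A replicate 1, of which 1 was a member. Of a list of 9 seed markers, storage proteins and oleosins among them, 0 had a named probe set. The named LEA genes, whose proteins build up late in embryo development, were picked after the values had been seen and were dim in Col and miR. AtLEA4-1 read 3.85, 4.01 and 3.71, and LEA18 read 3.62, 3.65 and 3.73 in the miR arrays. There LEA read 3.72, 3.41 and 3.73, and LEA4-5 read 4.93, 4.46 and 4.91. Such low levels limit what these genes show about miR replicate 3. Whether another tissue or seed material contributed to that sample was not tested. Left out, the 11 leave 109 members, with a median rise of 0.88. Without miR replicate 3 the rule itself gives 132 members, 100 of them among the 120. Every miR array was more than 0.4 above the Col mean for 104 members and at least 0.7 above it for 60.

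**Figure D2:**
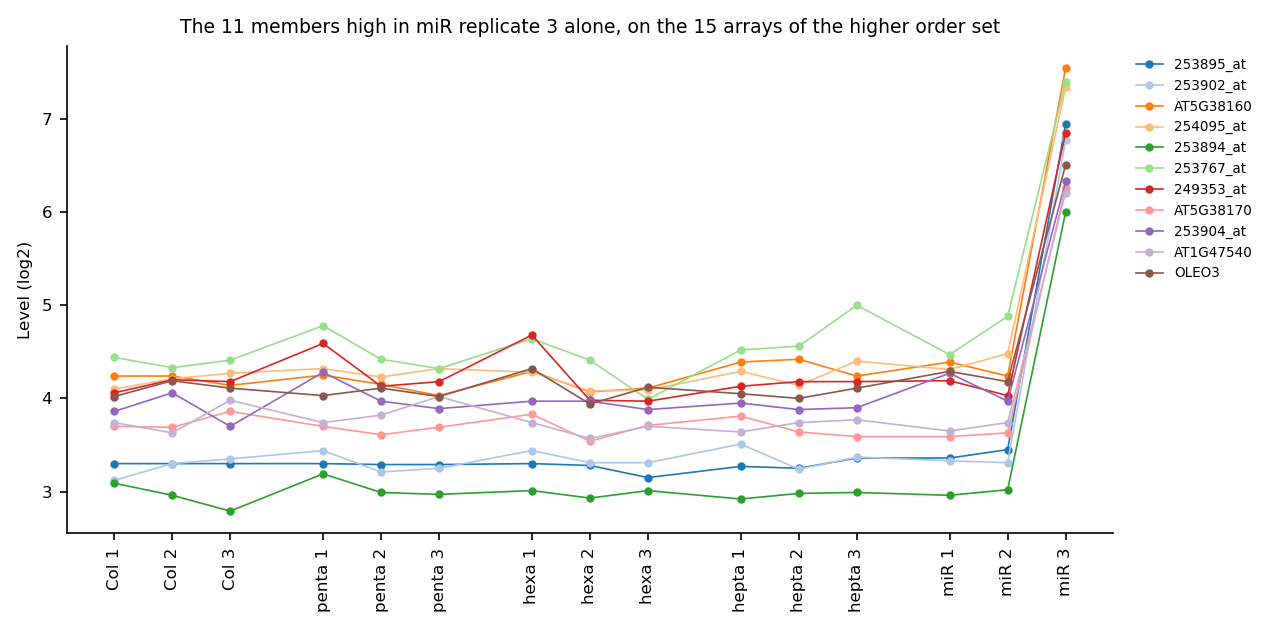
Log2 levels of the 11 members that were high in miR replicate 3 alone are plotted for the 15 arrays of the higher order set, with a line for each probe set. The levels on the other arrays lie close together for each, and on miR replicate 3 they are 2.40 to 3.65 above the Col mean.

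The mitotic members were raised by similar amounts, 0.70 to 0.94 with a median of 0.79. For all 7 each miR array was above all 12 other arrays, as for 104 of the 120 members and 4.26% of all plant probe sets. The rule used these arrays, so nothing is read from that count. Their penta, hexa and hepta means lay -0.16 to 0.18 from Col. AUR1 and AUR3 are Aurora kinases, which phosphorylate proteins of the spindle, the chromosomes and the division plane. AUR1 read 7.49, 7.25 and 7.27 in Col and 8.18, 8.14 and 7.86 in miR, a mean of 8.06 ± 0.18 (SD, n = 3) against 7.33 ± 0.13. AUR3 read 5.53, 5.59 and 5.64 in Col and 6.80, 6.38 and 6.40 in miR, 0.94 higher on the mean. In neither gene did the miR and Col arrays overlap.

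BUB3.1 and BUB3.2 belong to the BUB3 family of the spindle checkpoint, which delays the separation of chromosomes until they are attached. BUB3.1 read 7.74, 7.67 and 7.59 in Col and 8.56, 8.27 and 8.28 in miR. The difference of 0.70 was the smallest of any named member. BUB3.2 read 4.55, 4.86 and 4.83 in Col and 5.57, 5.54 and 5.50 in miR. Its miR arrays lay within 0.1 of each other, with an SD of 0.03.

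TOPII is topoisomerase II, the enzyme that untangles DNA molecules so that chromosomes can part. It read 6.99, 6.90 and 6.82 in Col and 7.94, 7.49 and 7.66 in miR, a difference of 0.79. 3xHMG-box1 encodes a high mobility group protein that binds mitotic chromosomes. It read 6.08, 6.23 and 6.15 in Col and 6.95, 7.11 and 6.54 in miR with no overlap. ZCF125, a kinesin-like protein, read 4.90, 4.97 and 4.92 in Col and 6.12, 5.75 and 5.61 in miR. This was a rise of 0.89 over one of the tightest Col groups among the named members (SD 0.03).

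The 7 mitotic members and 7 other named genes of mitosis and cytokinesis make up a list of 14. It was put together after the annotation and the values had been seen, so no test is given for it as a list. The rule set the 7 members at 0.7 or more above Col, so only the 7 others are described here. They were 0.14 to 0.59 above Col in miR, against a median of 0.01 for all plant probe sets. Gene by gene, limma called 9 of the 14 higher in miR, against 12.3% of all plant probe sets. The 7 members, chosen on this contrast, are all among the 9, so most of the 7 others were not called. 3xHMG-box2, the paralog of 3xHMG-box1, was 0.59 above Col, and KINESIN-12B, a motor of the phragmoplast that builds the new cell wall, was 0.51 above it. The third Aurora kinase, AUR2, was 0.26 above Col. BUBR1, another checkpoint gene, stood at 0.25, CDC27a and HBT, subunits of the complex that triggers anaphase, at 0.26 and 0.20, and the condensin subunit ATSMC2 at 0.14. No gene of the list lay between 0.26 and 0.51.

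Genes of DNA replication and histones were put on a list of 10 in the same way, so no test is given for it either. None of the 10 was a member, where 120 of all 22746 plant probe sets were, and nothing is read from that count. The median miR difference of the 10 was -0.02, from -0.31 for the histone H2B gene HTB1 to 0.22 for the polymerase subunit POLA3. The replication licensing gene PRL stood at -0.25 and the histone gene HTR12, which encodes the centromeric histone, at 0.01. Tubulin genes ran from -0.09 for TUA1 to 0.50 for TUB5, and TUB5 was also above Col in penta (0.32), hexa (0.37) and hepta (0.51).

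**Figure D3:**
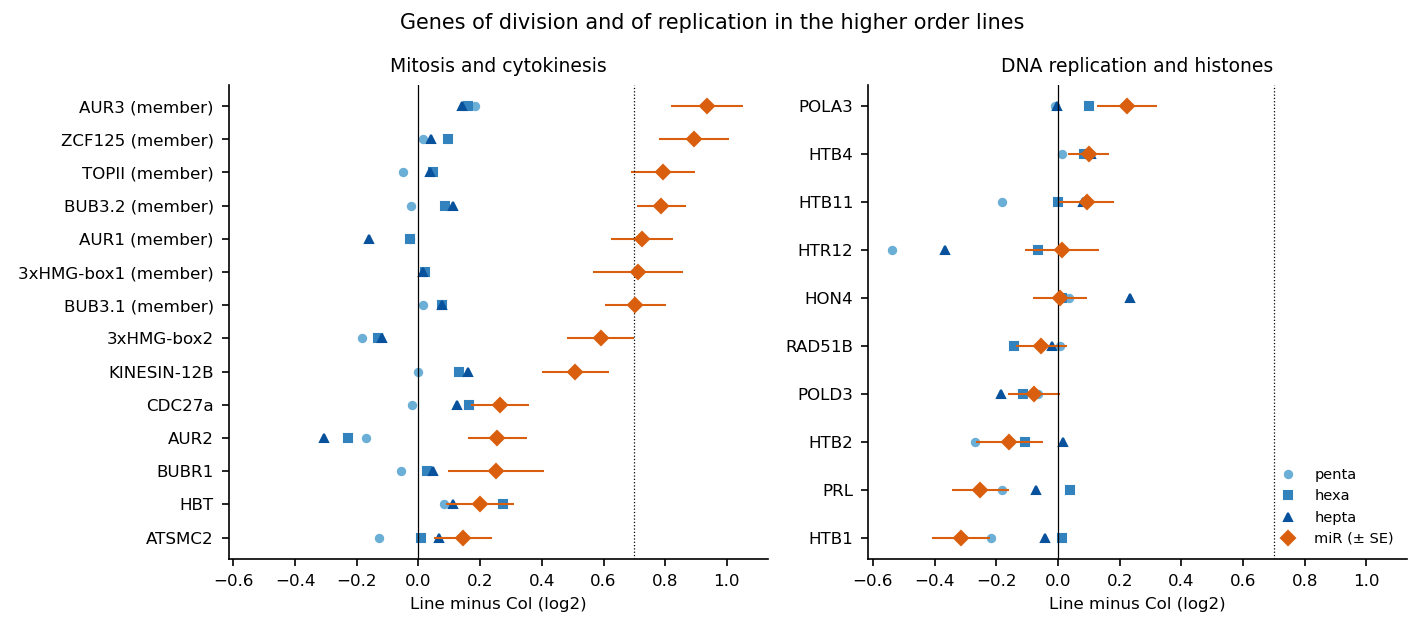
Differences from Col (log2) are shown for 14 genes of mitosis and cytokinesis and 10 of replication and histones, with diamonds and SE bars for miR and other symbols for penta, hexa and hepta. The dotted line marks the threshold of 0.7, which the rule set for the 7 members on the first list. In miR the 7 other genes of that list run from 0.14 to 0.59 and the second list from -0.31 to 0.22.

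NET3C belongs to the NETWORKED family of plant proteins that bind actin to membranes, and is known from contact sites of the endoplasmic reticulum with the plasma membrane. Its level was 4.53, 4.50 and 4.27 in Col and 5.31, 5.62 and 5.29 in miR. Of the 9 other NETWORKED genes, NET3A was 0.57 above Col and the remaining 8 lay between -0.14 and 0.11. ATMPK13 is a mitogen-activated protein kinase, a class of enzymes that relay signals. It read 5.22, 5.10 and 5.18 in Col and 5.93, 6.04 and 5.99 in miR, and its penta, hexa and hepta means were below Col by 0.26, 0.24 and 0.16.

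PME61 is a pectin methylesterase, an enzyme that removes methyl groups from cell wall pectin. It read 5.70, 5.88 and 5.40 in Col and 6.72, 6.75 and 6.31 in miR, with no overlap. ATPMEPCRB, another gene of this family, was further above Col in miR, by 1.76, but also by 0.87 in hexa and 0.82 in hepta, and is therefore no member. PMEPCRF was 0.03 above Col.

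PDF1.2b encodes a defensin, a small antifungal peptide of a family induced by jasmonate and ethylene. It read 5.86, 6.31 and 5.83 in Col and 6.85, 6.45 and 8.05 in miR, so miR replicate 3 was again the highest and miR replicate 2 was close to the highest Col array. Its probe set carries a suffix that marks probes shared with other sequences, so signal from near-identical defensin genes could not be separated. PDF1.2, the paralog with a probe set of its own, went from 4.61 ± 0.33 in Col to 5.14 ± 0.51 in miR, a difference that limma did not call (adjusted p = 0.0709). The defensin-like genes LCR66 and LCR67 lay -0.07 and 0.11 from Col.

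**Figure D4:**
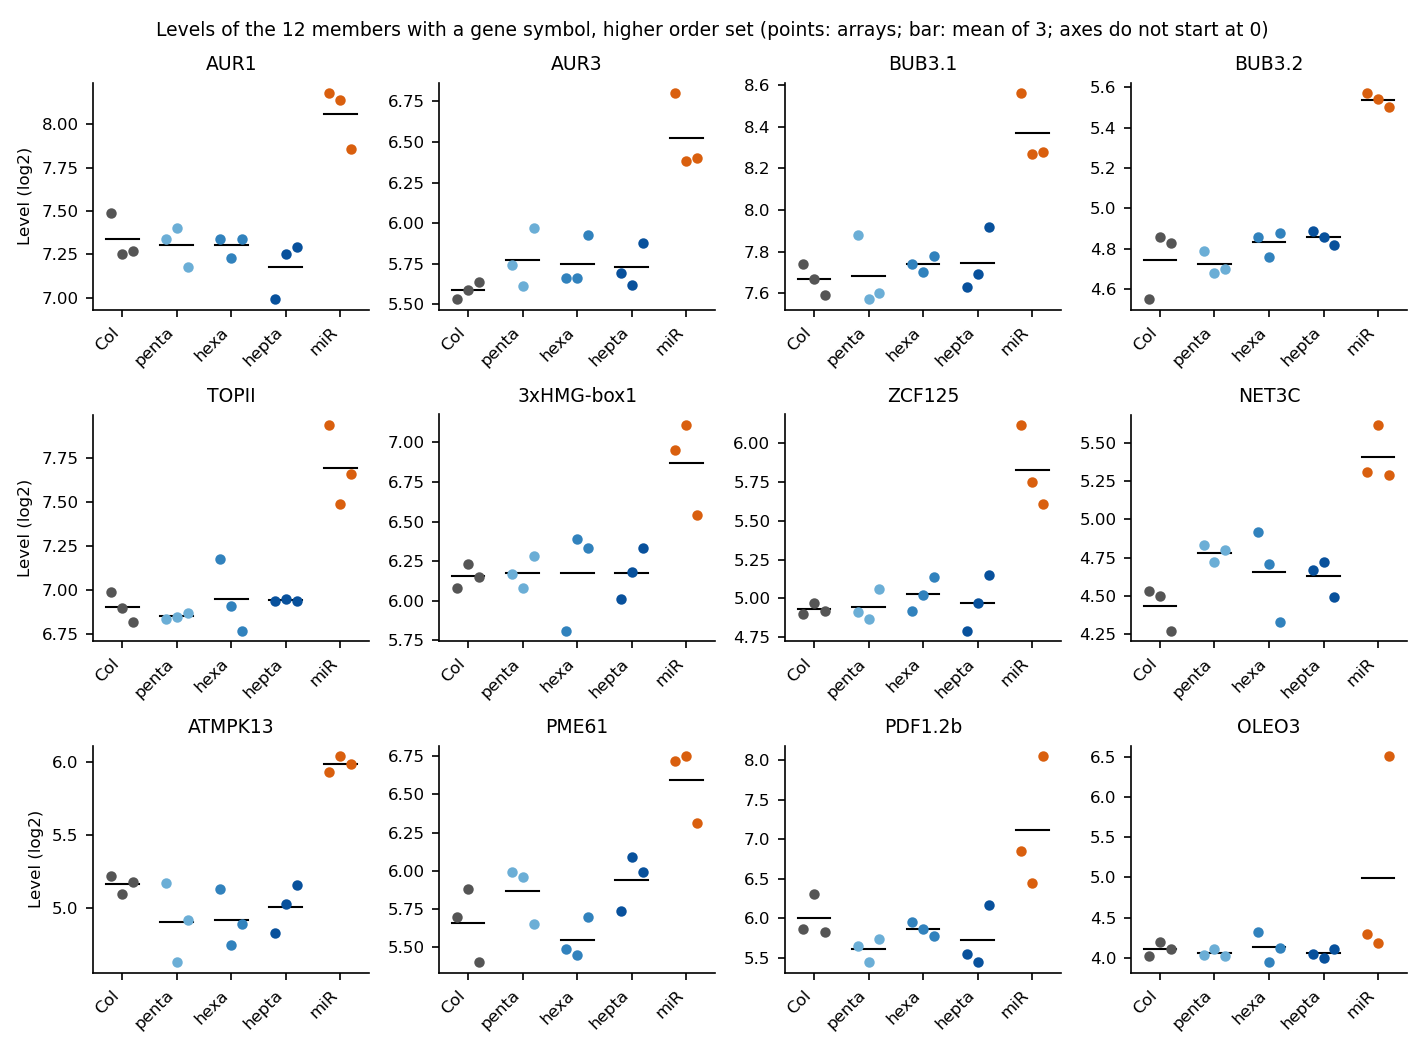
Log2 levels of the 12 members with a gene symbol are shown for each array of the higher order set, with a bar at the mean of 3. The miR arrays lie above all others in every panel except that of OLEO3, where only miR replicate 3 is high, and they spread widely in PDF1.2b.

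Among members known by a locus code, AT4G36700 had the largest rise. It read 3.74, 3.93 and 3.95 in Col and 4.89, 6.25 and 6.87 in miR, a wide range whose lowest array was still above every other array of the set. AT2G18600 read 5.21, 5.47 and 5.34 in Col and 6.74, 7.30 and 6.72 in miR, a mean difference of 1.58. AT1G12030 was 1.42 higher, with 6.61 in miR replicate 2 and 5.53 and 5.68 in the others.

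The next genes in order were tighter. AT3G17680 read 8.65, 8.63 and 8.63 in miR against 7.36, 7.26 and 7.14 in Col, with an SD of 0.01 in miR. AT5G23910 read 6.11, 5.91 and 5.80 in miR against 4.62, 4.69 and 4.44 in Col. Rises of 1.35, 1.32 and 1.26 were found for AT2G17740, AT5G05180 and AT4G22960. AT5G17160 and AT5G62550 were 1.09 and 1.08 above Col. Apart from AT5G38160, described above, the miR and Col arrays of these genes did not overlap, as was so for 110 of the 120 members. Of the 67 members without a single gene, 26 had a rise of 1 or more, the largest 2.01.

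Close to the threshold of the rise, BUB3.1 (0.70), 3xHMG-box1 (0.71) and AT5G37010 (0.72) lay just inside, and AT3G46110, AT1G65240 and AT5G38780 (0.69 each) just outside. At the band around Col, AT2G22880, PDF1.2b and AT5G45700 were just inside, with their farthest line 0.40, 0.39 and 0.38 from Col. BIK1, AT2G43530 and AT1G75960 were just outside it, at 0.40, 0.42 and 0.42.

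Of 184 entries of 18 gene lists written for this tissue and treatment, 21 had a probe set, and none of these was a member. Of all 22746 plant probe sets 120 were members, so nothing is read from that count. For 7 of the lists no entry had a probe set, among them the list of cell division with 6 entries. EIN3, a transcription factor of ethylene signalling, was 0.28 ± 0.08 (SE) higher in miR with limma (adjusted p = 0.0141), and stood 0.24, 0.28 and 0.43 above Col in penta, hexa and hepta. RTE1, a regulator of an ethylene receptor, was 0.37 ± 0.08 higher (adjusted p = 0.00414). ARR15, a cytokinin response regulator, fell by 0.44 on the log2 scale (adjusted p = 0.00263). No other entry was called in miR. Among markers of tissues, the leaf genes RCA and PRK (13.8 and 12.5 in Col) and the root gene PYK10 (13.0) were bright, the root hair gene EXPA7 (6.18) was intermediate, and the anther gene A9 (3.59) was near the bottom of the scale. These were -0.13 to 0.16 from Col in miR. Reference genes SAND, TIP41, GAPC2 and UBC21 were 0.04 to 0.12 above Col.

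Controls added to the samples differed slightly as well. Of 45 probe sets for bacterial and phage transcripts, limma called 5 in miR and 0 in penta, hexa and hepta, with p-values adjusted over all 22810 probe sets. In miR 40 of the 45 were above Col, by a median of 0.16 and at most 0.45. The 25S rRNA probe set was -0.72 from Col in miR, and also -0.83 in hexa and -0.67 in hepta. Differences between 3′ and 5′ probe sets of GAPDH, actin and ubiquitin overlapped between miR and Col. The part of labelling or hybridization in the members' rise was not tested.

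The single set was not used by the rule and gives tests that are independent of it. Against their Col arrays, the members were lower more often than higher in all 8 lines. In acs1A, limma called 3 members higher and 32 lower, against 8.83% and 12.5% of all plant probe sets. The counts were 4 and 35 in acs2B (10.2% and 12.5%), 6 and 34 in acs2C (12.1% and 14.5%), and 8 and 19 in acs4A (9.57% and 10.7%). They were 3 and 12 in acs5C (8.66% and 10.5%), 2 and 29 in acs5D (7.35% and 10.3%), 3 and 39 in acs6E (13.4% and 15.5%), and 8 and 41 in acs9B (10.9% and 14.7%). As shares of the 120 members, the lower calls were 10.0% in acs5C, close to the background, and 15.8% to 34.2% in the other lines. The median member difference ran from -0.02 in acs4A to -0.17 in acs2B, against -0.03 to -0.0043 over all plant probe sets. Leaving out 1 array moved the calls in both directions together from 35 to 22 in acs1A (replicate 2), from 39 to 23 in acs2B (replicate 1), from 15 to 9 in acs5C (replicate 1 or 2), from 31 to 17 in acs5D (replicate 1) and from 49 to 32 in acs9B (replicate 3).

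All 8 comparisons share the 3 Col arrays. Between each line and Col, 26 to 36 of the 45 bacterial and phage controls also differed, so genotype and the handling of the Col samples cannot be told apart there. BUB3.1, at 8.42, 8.48 and 8.34 in Col, was lower in 6 lines, by 0.31 in acs2B to 0.38 in acs2C, with adjusted p from 0.000485 to 0.00379 by limma. No array left out ended these calls. AUR3 fell in 4 lines, by 0.30 to 0.45 on the log2 scale, with adjusted p from 0.00101 to 0.0313. Its call was lost in acs1A without Col replicate 1 or acs1A replicate 2, and in acs5D without Col replicate 1 or acs5D replicate 2 or 3. 3xHMG-box1 fell by 0.38 in acs2B (adjusted p = 0.00487) and by 0.36 in acs6E (adjusted p = 0.00557), both kept under all 10 alternatives. ZCF125 was 0.25 higher in acs4A (adjusted p = 0.048), lost without Col replicate 2 or 3 or acs4A replicate 1 or 3. TOPII was 0.55 higher in acs5C (adjusted p = 0.000375) and 0.30 higher in acs4A (adjusted p = 0.0344), and 0.43 lower in acs9B (adjusted p = 0.00267). The acs5C and acs9B calls held under all 10 alternatives, and the acs4A call was lost without Col replicate 1 or 3 or acs4A replicate 2 or 3. Fitted by limma on the 6 arrays of a comparison alone, the calls of BUB3.1 and AUR3 in acs2B, of AUR3 in acs1A and acs5D and of TOPII and ZCF125 in acs4A were lost, with adjusted p from 0.0537 to 0.181.

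Each line was therefore also compared with the other lines, without Col, at the same level of bioC, a hybridization control whose signal falls into a low and a high level among these arrays. The levels follow the lines except in acs2B, whose replicates 1 and 3 are low (7.30 and 7.41) and replicate 2 high (9.02). The acs2B comparison therefore rests on 2 arrays, acs1A, acs2C, acs4A and acs5C were each set against 11 arrays of other lines, and acs5D, acs6E and acs9B each against 7, where acs2B replicate 2 stands alone for its line. Higher and lower calls of members were 7 and 5 in acs1A, against 2.57% and 2.22% of all plant probe sets, and 6 and 7 in acs2B (6.73% and 7.38%). They were 6 and 12 in acs2C (6.73% and 6.86%), 22 and 7 in acs4A (2.24% and 1.94%), and 10 and 0 in acs5C (2.66% and 1.11%). No member was called in acs5D (0.783% and 0.664%), where limma gave 20 members an unadjusted p below 0.05 and leaving out an array gave up to 4 calls. In acs6E the counts were 10 and 8 (9.14% and 7.35%), and in acs9B 16 and 16 (13.6% and 14.0%), shares close to those of all probe sets. Several of these counts rested on single arrays. Both directions together went from 12 to 7 or 5 in acs1A without its replicate 1 or 2, from 13 to 1 or 8 in acs2B without its replicate 1 or 3, from 18 to 11 in acs2C without its replicate 1, from 10 to 2 in acs5C without its replicate 1 and from 32 to 19 in acs9B without its replicate 1. Leaving out acs4A replicate 1 raised the count to 22 in acs1A and 29 in acs2C.

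**Figure D5:**
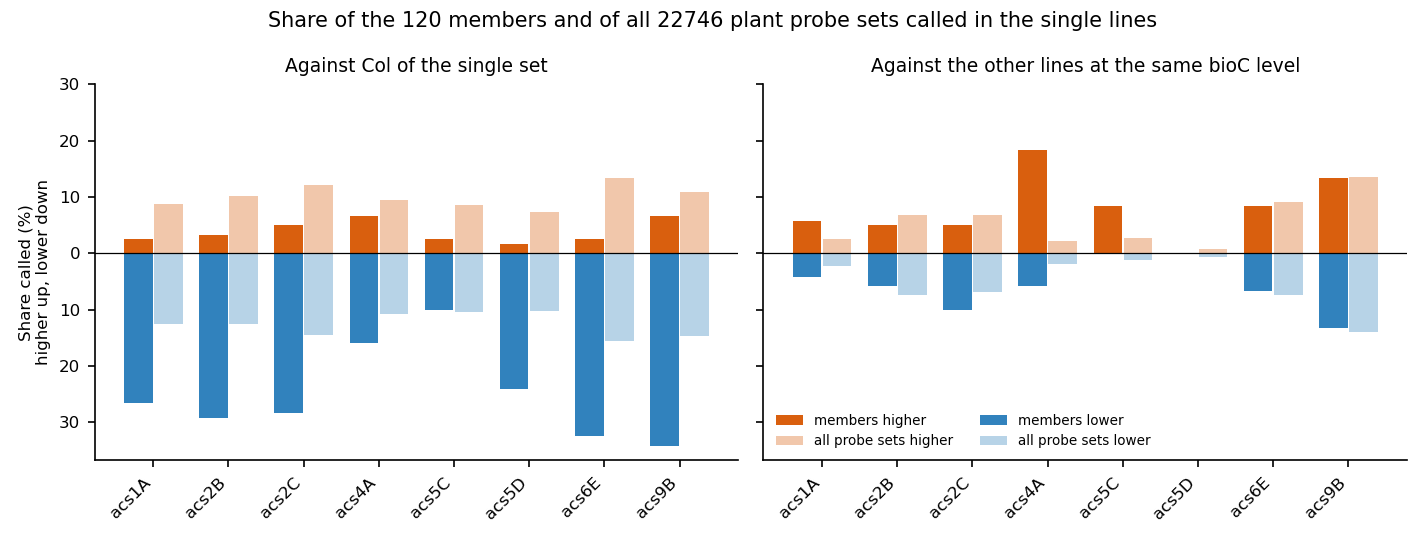
Bars give the share of the 120 members (dark) and of all 22746 plant probe sets (pale) called by limma at an adjusted p below 0.05, higher upwards and lower downwards, for each single line against Col and against the other lines. Against the other lines, acs4A has 22 members higher, or 18.3%, beside 2.24% of all probe sets.

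In acs4A, 18.3% of the members were higher than in the other lines, against 2.24% of all plant probe sets, and the median member difference was 0.07 against 0.0043. The number higher was 31 without acs4A replicate 1, 9 without its replicate 2, 6 without its replicate 3 and 14 without acs2B replicate 1, so it rests on few arrays. AT5G45700, at 5.59, 6.07 and 6.23 in acs4A and 4.99 to 5.84 in the 11 arrays of acs1A, acs2B, acs2C and acs5C at the same bioC level, was 0.56 ± 0.10 (SE) higher with limma (adjusted p = 0.00200). It kept its call under all 16 alternatives. Against Col, AT5G45700 stood at -0.13 in acs4A, a difference that limma did not call (adjusted p = 0.521). The acs4A arrays overlapped those of acs5C.

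The mitotic members were all above the other lines in acs4A, by 0.11 to 0.31 with a median of 0.21. Of the 7, 2 were called higher, where 2.24% of all plant probe sets were. In the same comparison 3 of 7 tubulin genes were called higher, with a list median of 0.19. So was 1 of the 10 genes of replication and histones, with a list median of 0.11. ZCF125 read 5.79, 5.72 and 5.90 in acs4A and was 0.31 ± 0.07 higher with limma (adjusted p = 0.0152), a call lost without acs4A replicate 3 (adjusted p = 0.105). BUB3.1 was 0.22 ± 0.06 higher (adjusted p = 0.0383). That call was lost on leaving out acs1A replicate 1, 2 or 3, acs2B replicate 1, acs2C replicate 1 or 3, acs4A replicate 2 or 3, or acs5C replicate 1 or 2, with adjusted p up to 0.244. AUR1 had a difference of 0.21 (adjusted p = 0.0672). Off the member list, limma called 3xHMG-box2 0.46 higher (adjusted p = 0.00151) and BUBR1 0.25 higher (adjusted p = 0.0179). In no other line were more than 1 of the 7 mitotic members called against the other lines. Against Col in acs4A, only 4 of the 7 were above 0, with differences from -0.12 to 0.30 and a median of 0.15.

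Against the other lines, TOPII was called in acs5C and acs9B, and not in acs4A (0.15, adjusted p = 0.391). It read 7.74, 7.87 and 7.76 in acs5C, above every other array of the single set, and 6.98, 7.04 and 6.95 in acs5D, a line named for the same gene. In acs5C limma called it 0.46 ± 0.08 higher in acs5C (adjusted p = 0.00159), kept under all 17 alternatives. In acs9B it read 6.74, 6.73 and 6.98 and was 0.33 ± 0.09 lower (adjusted p = 0.00896), lost at an adjusted p of 0.0518 and 0.0509 without acs9B replicate 1 or 2.

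The largest differences against the other lines were in members unnamed here. One of them, picked after its values were seen, ran from 2.31 above the other lines in acs1A to 1.59 below them in acs2B, but it also spread from 6.88 to 9.64 over the Col arrays. Among the named members the largest were in genes known by locus code. AT5G05250 was 0.72 ± 0.14 higher in acs5C with limma (adjusted p = 0.00434) and fell by 0.68 on the log2 scale in acs1A (adjusted p = 0.00606). Each call was lost without 1 array, acs5C replicate 1 (adjusted p = 0.071) or acs1A replicate 2 (adjusted p = 0.108). AT2G17740, with 7.29, 6.28 and 6.73 in acs5C, 6.78, 6.57 and 6.88 in acs2C and 5.52 to 6.03 in acs2B, was 0.69 ± 0.14 higher in acs5C (adjusted p = 0.00818, lost without acs5C replicate 1), 0.58 ± 0.16 higher in acs6E (adjusted p = 0.0149, lost without acs6E replicate 1 or acs2B replicate 2) and 0.65 ± 0.14 higher in acs2C (adjusted p = 0.00577, kept under all 17 alternatives). AT3G05400 was 0.52 ± 0.08 higher in acs5C (adjusted p = 0.000329) and fell by 0.47 in acs2C (adjusted p = 0.000863) and by 0.33 in acs9B (adjusted p = 0.00617), all on the log2 scale and all kept under every alternative run.

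The other calls among the named members were as follows. AT1G12030 was 0.56 ± 0.11 higher in acs5C (adjusted p = 0.00528, lost without acs5C replicate 1). AT5G45700 fell by 0.43 on the log2 scale in acs2C (adjusted p = 0.00765), and AT1G21810 fell by 0.38 (adjusted p = 0.0167); these were lost without acs2C replicate 1 and acs2C replicate 2. AT5G17160 fell by 0.37 in acs9B (adjusted p = 0.025), lost without any 1 of the acs9B arrays. It fell by 0.34 in acs2C (adjusted p = 0.0374) and was 0.39 ± 0.11 higher in acs4A (adjusted p = 0.0385). The first was lost without acs1A replicate 1, acs2B replicate 3, any 1 of the acs2C arrays, acs4A replicate 2 or acs5C replicate 2, and the second without acs2B replicate 1, acs4A replicate 2 or 3 or acs5C replicate 1 or 3. AT4G36700 was 0.38 ± 0.10 higher in acs5C (adjusted p = 0.0319, lost without any 1 of the acs5C arrays or acs2B replicate 3) and 0.42 ± 0.11 higher in acs6E (adjusted p = 0.011, lost without acs6E replicate 1). AT5G05180 was 0.33 ± 0.11 higher in acs9B (adjusted p = 0.0333, lost without acs2B replicate 2, acs5D replicate 1, acs6E replicate 2 or acs9B replicate 2). AT3G17680 was 0.31 ± 0.08 higher in acs4A (adjusted p = 0.0254, lost without acs4A replicate 2 or 3) and fell by 0.30 in acs2B (adjusted p = 0.0348). The acs2B value is of 2 arrays, and replicate 3 alone, the 1 array left without replicate 1, gave 0.0945, where its spread was taken from the other lines. AT5G23910 was 0.26 ± 0.07 higher in acs4A (adjusted p = 0.0308, lost without acs4A replicate 2 or 3 or acs2B replicate 1). Since each line is set against the mean of the others, differences on both sides are built into these comparisons.

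Lines named for the same gene were set against each other. Between acs2B and acs2C, limma called 10 members higher in acs2B and 9 lower, against 10.4% and 10.9% of all plant probe sets. Replicate 2 of acs2B has the high bioC level and all acs2C arrays the low one. The 19 calls became 11 without acs2B replicate 2 and 12 without acs2B replicate 3 or acs2C replicate 3. Between acs5C and acs5D, 4 members were higher in acs5C and 0 lower, against 1.59% and 0.703%, and the 4 became 2 without acs5C replicate 1 or 2 and 1 without acs5D replicate 2. In TOPII the difference was 0.80 ± 0.10 (adjusted p = 3.07e-05, kept under all 10 alternatives). The acs5C arrays have the low bioC level and the acs5D arrays the high one, so line and hybridization cannot be told apart.

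Across the 24 line arrays of the single set, the mean level of the 7 mitotic members was used as a profile. Though part of this profile, 3xHMG-box1 (0.49), BUB3.2 (0.53) and AUR3 (0.64) followed it less closely than the rest (0.76 to 0.79). A correlation of 0.7 or more with it was found for 16 of the 113 other members (14.2%), compared with 64 of the 22626 plant probe sets outside the members (0.283%), and the median correlation was 0.12 and -0.0047. The 6 with a single gene were AT5G55520 (0.81), AT5G23910 (0.80), AT2G37420 (0.79), AT5G01910 (0.77), AT3G17680 (0.77) and AT3G20150 (0.73). The points are arrays that share lines and bioC levels, and the likeness is given as a description.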

How the data were processed

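The values are the authors' deposited log2 expression values for 22810 probe sets of 42 arrays, made with RMA per the submitters' processing notes (version not given in the sources used here). RMA corrects background, normalizes by quantiles and compresses differences of dim probe sets. Array medians were 6.77 to 6.84 in the single set and 6.24 to 6.32 in the higher order set, so each fit stayed within a set. After leaving out 64 control probe sets, limma 3.58.1 in R 4.3.3 (lmFit, eBayes, 1 coefficient per group, no filter) was fitted to 22746, with Benjamini-Hochberg adjustment over all of them in each comparison and calls at an adjusted p below 0.05. The fits were tested on simulated data. No arrays were identical, and 3 per group limit the precision. Replicates were labelled biological, and p-values measure only the spread between these samples.

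Names came from the platform annotation and RefSeq (TAIR10.1, names and neighbours only): 13513 probe sets had a single gene, 503 several and 8730 were unnamed here. The members, lists and tests were chosen with earlier results of these data known. Named genes were single-gene members with the 12 largest rises, a symbol, a place on the lists, the 5 largest rises and falls called against the other lines, or a place next to a threshold. Genes with a likeness of 0.7 or more, the members high in 1 array and the LEA genes were named after their values were seen. Alternatives changed the thresholds, the summary, the normalization, a filter on dim probe sets, the arrays fitted and a replicate block, and left out each array in turn.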

Additional observations from a re-analysis of the deposited data

Results flagged for a closer look

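Lines named for the same gene differed in 8 named members by limma at an adjusted p below 0.05. Between acs2B and acs2C, 8.33% of the 120 members were called higher and 7.5% lower, against 10.4% and 10.9% of all plant probe sets. Between acs5C and acs5D the shares were 3.33% and 0%, against 1.59% and 0.703%. Replicate 2 of acs2B has the high bioC level and all acs2C arrays the low one. Between acs2B and acs2C, AT2G17740 was -1.01 (5.52 to 6.03 in acs2B, 6.57 to 6.88 in acs2C; adjusted p = 0.000667, kept under all 10 alternatives). In the same comparison AT5G05250 was -0.61, a call lost without acs2B replicate 3 or acs2C replicate 1, and AUR3 was -0.28, lost without acs2B replicate 1 or 2 or acs2C replicate 1 or 3. AT1G21810 was 0.41 higher in acs2B, lost without acs2B replicate 3 or acs2C replicate 2. AT3G05400 was also 0.41 higher, lost without acs2B replicate 2 or 3 or any 1 of the acs2C arrays. AT5G17160 was 0.42 higher, lost without acs2B replicate 2 or 3 or acs2C replicate 2. PDF1.2b was 0.92 higher, from 6.75, 6.92 and 5.83 in acs2B against 5.55 to 5.62 in acs2C, lost without acs2B replicate 1 or 2 or any 1 of the acs2C arrays. Between acs5C and acs5D, TOPII was 0.80 higher in acs5C, with bioC level and line confounded.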

How the results depend on the processing

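The number of members, 120, became 184, 74 and 40 with a rise of 0.6, 0.8 and 1 and 52 with only probe sets averaging at least 6, and ran from 109 to 132 on leaving out 1 array in turn. A narrower or wider band, group medians and a second quantile normalization gave 90 to 150. For the counts of calls that follow, the share of all plant probe sets called under the same setting is not given. They show how far a count moved, and nothing else is read from them about the members. With the filter on dim probe sets, which leaves fewer members tested, calls against Col became 22 in acs1A, 21 in acs2B, 17 in acs5D, 23 in acs6E and 32 in acs9B, and against the other lines 6 in acs5C and 21 in acs9B. Fitting only the 6 arrays of a comparison gave 23 in acs1A, 25 in acs2B, 6 in acs4A, 9 in acs5C, 20 in acs5D and 25 in acs9B against Col, 30 between acs2B and acs2C and 12 between acs5C and acs5D; the cause was not tested. Leaving out 1 array in turn gave against Col 22 to 34 (acs1A), 23 to 37 (acs2B), 32 to 40 (acs2C), 20 to 29 (acs4A), 9 to 15 (acs5C), 17 to 30 (acs5D), 28 to 41 (acs6E) and 32 to 46 (acs9B). Against the other lines it gave 5 to 22 (acs1A), 1 to 17 (acs2B), 11 to 29 (acs2C), 11 to 40 (acs4A, of which 6 to 31 higher), 2 to 13 (acs5C), 0 to 4 (acs5D), 12 to 23 (acs6E) and 19 to 30 (acs9B), and between same-gene lines 11 to 19 (acs2B and acs2C) and 1 to 4 (acs5C and acs5D). Of 33 named calls, 8 held under every alternative run, and over 470 alternatives 398 kept the call, 71 lost it and 1 turned its direction: AT3G17680, lower in acs2B than in the other lines, ranged from -0.4947 to 0.0945 on leaving out 1 array, above 0 without acs2B replicate 1, which leaves 1 acs2B array at that bioC level with its spread taken from the other lines. Same-numbered arrays did not deviate together (correlations of -0.26 to 0.33 in the single set, mean 0.01, and -0.18 to 0.21 in the higher order set, mean 0.03; 10 of 27 and 9 of 15 arrays correlated best with their own number). A replicate block gave 36 calls against Col in acs1A and 30 against the other lines in acs4A, and moved no count by over 1.5 times. Leaving out the 11 members high in 1 miR array, chosen after seeing the data, changed no count by over 1.5 times. RMA gives a value to background too, which limits what dim members show.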
